A study of Rattus norvegicus with 4 samples.

Results

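The genes described here are the cytokine gene Tnf, the genes of its 2 receptors, Tnfrsf1a and Tnfrsf1b, the 5 NF-kB subunit genes Rela, Relb, Rel, Nfkb1 and Nfkb2, and 2 genes whose products hold the pathway back, Nfkbia and Tnfaip3. They were taken by symbol from a table of raw read counts that lists 24005 genes, where each of the 10 was found once. The filter on low counts kept 9 of them among 15282 genes tested, and Tnf did not pass it. PolyA RNA had been sequenced from cartilage of rats of the Sprague Dawley strain, an outbred stock. The rats were male, 8 to 12 weeks old and 140 to 230 g in weight. Of 4 libraries, 2 carry the disease state osteoarthritis together with the treatment XGS, and 2 are labelled healthy, with the treatment control. XGS stands for Xiaogu San, a herbal preparation, and the series' title names monosodium iodoacetate, which blocks glycolysis and harms cartilage cells, as the agent that induced the disease. No library has the osteoarthritis label without XGS, so the disease and the preparation cannot be told apart in any difference below. The design text calls the normal animals mice while each sample is labelled as rat. The labels do not say whether replicates came from separate animals, so a p-value here weighs a difference against library-to-library spread that could be technical.

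TNF is a cytokine that binds a receptor present on most cell types, encoded by Tnfrsf1a, and a second receptor found mainly on immune and endothelial cells, encoded by Tnfrsf1b. Signalling from the first receptor activates the IkB kinases, which mark the inhibitor IkB alpha for destruction and so free NF-kB dimers to enter the nucleus. NF-kB then switches on inflammatory genes and, among them, its own inhibitors Nfkbia and Tnfaip3, which end the response. In cartilage, TNF and this pathway are known for raising matrix-degrading enzymes and lowering matrix synthesis.

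The libraries held 24492412 and 25994449 counts in osteoarthritis and 28156020 and 28270779 in control. All 14 chondrocyte markers found in the table had counts in every library. Their summed level was 4321 and 10612 CPM (counts scaled to library size) in the osteoarthritis libraries against 24856 and 37171 CPM in the controls. Col2a1 alone made up 3431 and 385 CPM of these sums, against 13919 and 26813 CPM. Of the 14, 9 lay below both controls and 0 above, beside 26.5% and 30% of all genes tested. Acan, Sox9 and Col11a1 were above both controls in osteoarthritis replicate 2 and below both in replicate 1. The libraries also differed in other tissues' markers: 10 adipocyte markers summed to 9453 CPM in osteoarthritis replicate 1 and 130 CPM in replicate 2, against 1704 and 685 CPM in control, and 8 tendon and ligament markers to 571 CPM and 12965 CPM, against 5248 and 4547 CPM. The 10 skeletal muscle markers summed to 155 and 438 CPM in osteoarthritis, against 2585 CPM in control replicate 1 and 112 CPM in control replicate 2. Markers of marrow blood cells were lower in osteoarthritis, with 10 erythroid genes at 452 and 1236 CPM against 36968 and 31885 CPM. In such bulk tissue, fewer cells of a type and less RNA per cell cannot be told apart.

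No difference between the groups passed the test for any of the 9 tested genes. By edgeR's quasi-likelihood test, with p-values adjusted after Benjamini and Hochberg, 0 of them were called higher and 0 lower. The test called 0% of all 15282 genes in either direction, with a smallest adjusted p of 0.0824. At an unadjusted p under 0.05 it had 0 of the 9 in either direction, where 12.2% of all genes were higher and 11.2% lower. DESeq2, which called 7.11% of all genes higher and 7.97% lower, also called 0 of the 9. So did edgeR's likelihood ratio test, which called 6.31% of all genes higher and 6.4% lower, and limma-voom, which called 0%. In 8 of the 9 the log2 fold change, osteoarthritis over control, was positive, as it was in 55.1% of all genes, and the median was 0.36 for the 9 against 0.15 for all genes tested. Both values rested on osteoarthritis replicate 2: without it 4 of the 9 were positive and their median was -0.059, against 0.07 for all genes. For 2 of the 9, the 2 receptors, both osteoarthritis libraries lay above both controls, and for 0 they lay below both, where the shares over all genes were 30% and 26.5%. The other 7 overlapped. The count above both controls was 5 of 9 on deposited FPKM or on library size alone, with Nfkb2, Rela and Tnfaip3 beside the receptors, where 32.9% of all genes were above and 22.5% below. With upper quartile factors it was 2 above (27.3% of all genes) and 1 below, Relb (29.1%).

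The 2 osteoarthritis libraries differed in which genes were high. Taken alone and by CPM, osteoarthritis replicate 1 was above both controls for 3 of the 9, the receptors and Nfkbia (42.1% of all genes). It was below both for Nfkb1 and Rela (35.7%), which did not hold by deposited FPKM. Osteoarthritis replicate 2 alone was above both controls for 7, the receptors, Rela, Rel, Nfkb1, Nfkb2 and Tnfaip3 (42.8%), and below both for 0 (36.6%).

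**Figure D1:**
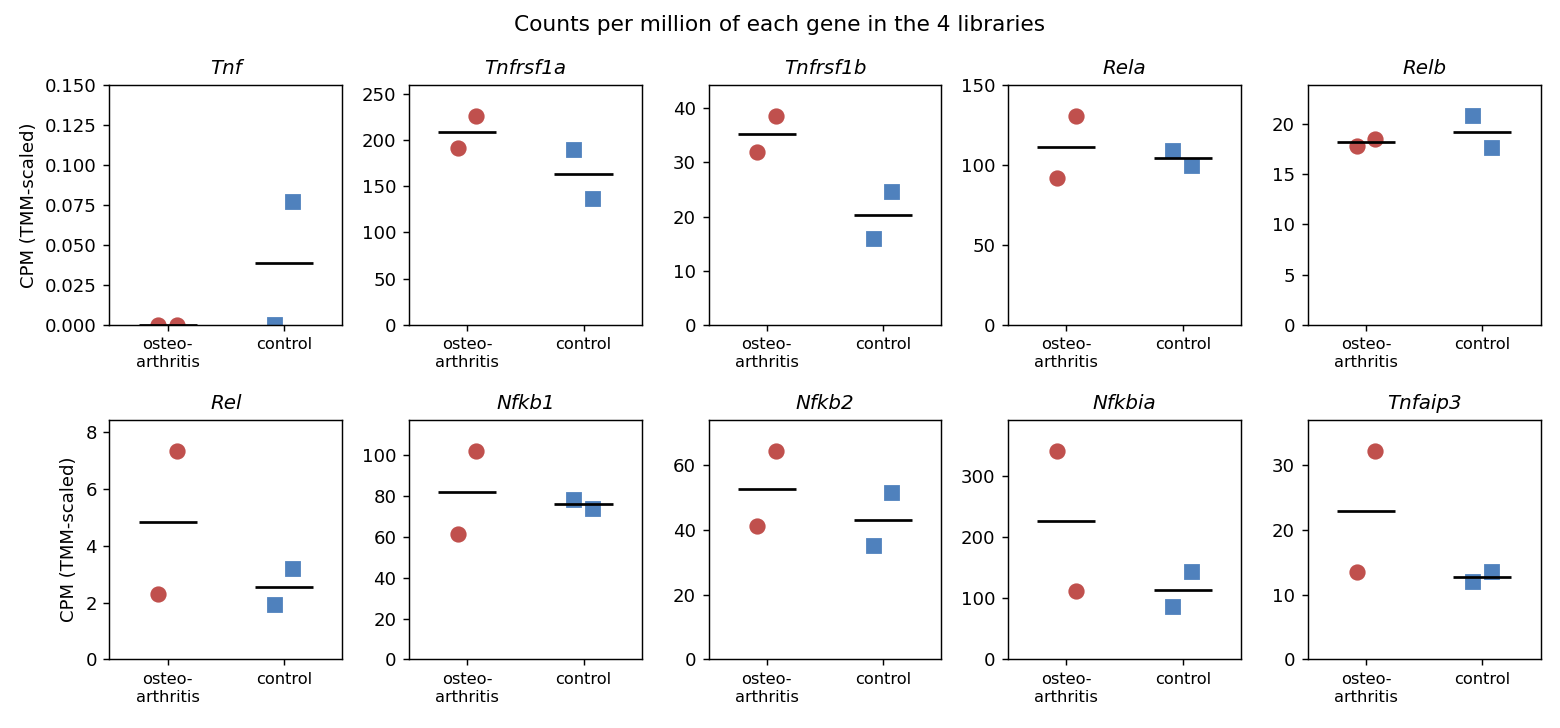
Level of each of the 10 genes in CPM on TMM-scaled library sizes, with circles for the 2 osteoarthritis libraries, squares for the 2 control libraries (replicate 1 on the left of each pair) and a line at each group's mean; each panel has its own axis from 0. The groups do not overlap for Tnfrsf1a and Tnfrsf1b, and Nfkbia is highest in osteoarthritis replicate 1 while Rel and Tnfaip3 are highest in osteoarthritis replicate 2.

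Transcripts of the ligand were at the edge of detection. Tnf had 0 counts in both osteoarthritis libraries, against 0 and 2 counts in the control libraries. A count of 0 allows a level of up to 0.102 CPM in osteoarthritis replicate 1, 0.13 CPM in osteoarthritis replicate 2 and 0.106 CPM in control replicate 1, taking 3 counts as the limit and counting error alone. The 2 counts in control replicate 2 came to 0.077 CPM, so no difference in Tnf was detectable at this depth.

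Tnfrsf1a, the receptor that carries the death domain and starts most TNF responses, was with Nfkbia the most abundant of the 10 transcripts by FPKM. It had 191 and 226 CPM in the osteoarthritis libraries, against 190 and 136 CPM in the controls. Osteoarthritis replicate 1 and control replicate 1 were nearly level, and the gap that separates the groups lies between those 2 libraries. The log2 fold change was 0.36 ± 0.37 (SE; edgeR adjusted p = 0.609), with a 95% interval from -0.57 to 1.28.

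Tnfrsf1b, the receptor without a death domain, which signals through TRAF adaptors, came nearest to the threshold of the 9. It had 32.0 and 38.5 CPM in osteoarthritis, against 15.9 and 24.5 CPM in control, a mean of 35.3 ± 4.62 against 20.2 ± 6.08 CPM (SD, n = 2 each). Both osteoarthritis libraries were above both controls, and the log2 fold change was 0.80 ± 0.38, with an unadjusted p of 0.0824 and an adjusted p of 0.274 by edgeR. Its 95% interval ran from -0.15 to 1.75. It stayed positive with any 1 library left out, between 0.47 without control replicate 1 and 1.16 without control replicate 2. Macrophages carry this receptor. Of 16 macrophage and monocyte markers, 13 lay below both controls and 1, Mrc1, above both, beside 26.5% and 30% of all genes. None was at 0. They summed to 1378 and 1683 CPM in osteoarthritis against 6419 and 9131 CPM in control. Of these sums Lyz2 alone made up 382 and 1100 CPM, against 4705 and 6879 CPM. Of 10 endothelial markers, 4 lay above both controls and 0 below, beside the same 30% and 26.5% of all genes, with none at 0. They summed to 1694 and 1036 CPM in osteoarthritis against 1174 and 557 CPM in control, so these sums overlapped between the groups. The part of either cell type in the Tnfrsf1b values was not tested.

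Since both receptors bind the same ligand, their ratio was taken within each library from FPKM, the deposited level per kilobase of gene length. Tnfrsf1a stood at 7.72 and 7.58 times Tnfrsf1b in the osteoarthritis libraries, against 15.4 and 7.16 times in the controls. Control replicate 1 alone had the high ratio, and the other 3 libraries were close together. With 2 libraries against 2 an exact permutation test cannot go below p = 0.33, so no test was made of any ratio.

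Among the NF-kB subunits, the 3 most abundant showed small differences whose sign turned with the osteoarthritis library used. Rela, the main transactivating subunit of the canonical pathway, had 91.8 and 131 CPM in osteoarthritis, against 109 and 99.3 CPM in control, with a log2 fold change at 0.09 ± 0.34 (by edgeR, adjusted p = 0.905). Nfkb1, whose precursor is cut to the DNA-binding partner of RelA, had 61.3 and 102 CPM against 78.0 and 73.5 CPM, a log2 fold change of 0.11 ± 0.37 (adjusted p = 0.899). By CPM, osteoarthritis replicate 1 lay below both controls for both genes, and replicate 2 above both. The position of replicate 1 depended on the scaling, with TMM factors of 1.21 for osteoarthritis replicate 1 and 0.891 for replicate 2. By deposited FPKM, replicate 1 was at 45.2 for Rela, against 45.1 and 37.5 in control. For Nfkb1 it was at 18.9 FPKM, against 20.2 and 17.4 in control. Nfkb2, the precursor processed in the non-canonical pathway, had 41.1 and 64.3 CPM in osteoarthritis, against 34.8 and 51.4 CPM in control, and a log2 fold change of 0.29 ± 0.39 (adjusted p = 0.711).

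Relb, the partner of processed Nfkb2 in the non-canonical pathway, varied little between the libraries. Its level was 17.8 and 18.5 CPM in osteoarthritis, against 20.8 and 17.6 CPM in control. The osteoarthritis values lay between the controls, and the log2 fold change was -0.08 ± 0.37 (by edgeR, adjusted p = 0.930), with a 95% interval from -1.01 to 0.85. Rel, the subunit typical of lymphoid cells, rested on few reads, with 68 and 170 counts in osteoarthritis and 55 and 83 in control. These came to 2.31 and 7.35 CPM, against 1.94 and 3.18 CPM. Only osteoarthritis replicate 2 stood apart, and the log2 fold change of 0.91 ± 0.96 (adjusted p = 0.620) was -0.14 without it. B cell markers were lower in the osteoarthritis libraries, with 10 genes at 44.8 and 51.6 CPM against 597 and 853 CPM in control. The 11 T and NK cell genes summed to 136 and 60.5 CPM in osteoarthritis against 202 and 340 CPM in control, of which Nkg7 alone, a granule protein of killer cells, made up 4.95 and 6.57 CPM against 86.6 and 184 CPM. Of the 10 tested T and NK cell genes, 3 had a positive log2 fold change. All 10 B cell genes and 5 of 10 tested T and NK cell genes lay below both controls. Above both lay 0 of either list, where the shares over all genes were 26.5% below and 30% above. No B cell gene was at 0 in any library, and 1 T and NK cell gene was at 0 in each control. Their part in the Rel values was not tested.

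Rela and Nfkb1 held similar shares of the subunit transcripts in the 4 libraries. By FPKM, Rela made up 51.4% and 49.6% of the 5 subunit transcripts in osteoarthritis, against 53.2% and 49.4% in control. Nfkb1 made up 21.5% and 24.3%, against 23.9% and 22.9%. For these 2 genes the osteoarthritis shares lay within or close to the control range. Nfkb2 made up 15.1% and 16.1% in osteoarthritis against 11.2% and 16.8% in control, Relb 10.7% and 7.58% against 10.9% and 9.43%, and Rel 1.14% and 2.47% against 0.836% and 1.40%. Relb therefore stood at 0.209 and 0.153 times Rela in osteoarthritis, against 0.205 and 0.191 times in control, and Nfkb2 at 0.703 and 0.662 times Nfkb1, against 0.469 and 0.734 times.

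The 2 inhibitor genes are textbook targets of NF-kB itself, so their start regions are shown with the matches to a kappa B motif. RefSeq's rat table (GRCr8) gave a 300-base window, 250 bases before and 50 after the start, for 9 of the 10 genes. The motif GGGNNTTTCC was searched on both strands, and matches did not overlap each other. It was found in 5 of the 9 windows, Nfkbia, Tnfaip3, Nfkb1, Nfkb2 and Rel, and in 1.53% of 33469 windows of the same length. A match is a run of letters, not evidence of binding in these samples. Nfkbia (chr6:78597023-78597322, minus strand), Tnfaip3 (chr1:15543930-15544229, minus strand) and Nfkb2 (chr1:255108124-255108423, plus strand) are printed 5′ to 3′ on the strand of the gene, with the matches in capitals.
Nfkbia: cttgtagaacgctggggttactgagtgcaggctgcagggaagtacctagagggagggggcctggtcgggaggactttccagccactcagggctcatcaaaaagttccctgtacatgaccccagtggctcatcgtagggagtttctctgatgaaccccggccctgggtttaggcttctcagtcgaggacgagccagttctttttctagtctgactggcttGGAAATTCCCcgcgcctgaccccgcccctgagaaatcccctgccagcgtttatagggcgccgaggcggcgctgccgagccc
Tnfaip3: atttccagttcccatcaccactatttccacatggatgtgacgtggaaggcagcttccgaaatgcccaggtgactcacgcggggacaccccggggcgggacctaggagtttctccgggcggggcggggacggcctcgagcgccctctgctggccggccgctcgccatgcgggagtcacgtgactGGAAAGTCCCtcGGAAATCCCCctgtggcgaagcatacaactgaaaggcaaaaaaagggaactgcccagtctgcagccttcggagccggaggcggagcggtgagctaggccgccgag
Nfkb2: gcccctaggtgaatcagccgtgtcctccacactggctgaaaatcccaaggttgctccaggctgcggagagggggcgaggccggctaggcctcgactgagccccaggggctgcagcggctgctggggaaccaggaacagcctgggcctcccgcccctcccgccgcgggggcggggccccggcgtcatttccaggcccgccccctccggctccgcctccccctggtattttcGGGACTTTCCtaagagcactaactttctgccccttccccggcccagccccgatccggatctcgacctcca
On the motif's own strand the match reads GGGAATTTCC in Nfkbia, GGGACTTTCC and GGGGATTTCC in Tnfaip3, and GGGACTTTCC in Nfkb2. The Nfkb1 window (chr2:226805413-226805712, minus strand) holds GGGAATTTCC at bases 254 to 263, and the Rel window (chr14:101921889-101922188, minus strand) GGGGATTTCC at bases 170 to 179 on the opposite strand. The windows of Tnf, Tnfrsf1a, Tnfrsf1b and Rela have no match to these letters. The 5 genes with a match did not share a pattern across the libraries: Tnfaip3, Nfkb1, Nfkb2 and Rel were higher in osteoarthritis replicate 2 than in replicate 1, and Nfkbia was higher in replicate 1. By CPM, Tnfrsf1a, Tnfrsf1b and Rela, which have no match, and Relb, which has no window, were also higher in replicate 2. By deposited FPKM, Rela was higher in replicate 2, and Tnfrsf1a, Tnfrsf1b and Relb were higher in replicate 1.

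Nfkbia encodes IkB alpha, which binds NF-kB dimers and keeps them in the cytoplasm. It had 342 and 113 CPM in the osteoarthritis libraries, against 86.6 and 143 CPM in the controls. Osteoarthritis replicate 1 was 3.03 times replicate 2, while replicate 2 lay between the controls. With all 4 libraries the log2 fold change was 0.99 ± 0.62 (by edgeR, adjusted p = 0.397), and it became -0.07 (adjusted p = 0.959) without osteoarthritis replicate 1. Without osteoarthritis replicate 2 it was 1.59 and passed the test (adjusted p = 0.0154), in a fit that called 4.88% of all genes higher and assumes that a lone library varies like the controls. Over its 15 alternatives the adjusted p ran from 0.0154 to 0.959. Osteoarthritis replicate 1 also had the highest sum of the 10 adipocyte markers, 9453 CPM, with none at 0 in it. Control replicate 1 had 1704 CPM of these markers and control replicate 2 had 685 CPM, while Nfkbia was higher in control replicate 2. Osteoarthritis replicate 2 had the lowest sum, 130 CPM, with Nfkbia between the controls. The 10 endothelial markers also had their highest sum, 1694 CPM, in osteoarthritis replicate 1. The part of either list in the Nfkbia values was not tested.

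Tnfaip3 encodes a ubiquitin-editing enzyme that shuts down signalling between the receptor and the IkB kinases. It had 13.5 and 32.2 CPM in osteoarthritis, against 11.9 and 13.6 CPM in control. Here osteoarthritis replicate 2 stood apart, and by CPM replicate 1 lay between the controls, close to control replicate 2. By deposited FPKM, replicate 1 was above both controls, at 3.46 against 2.56 and 2.67, with replicate 2 at 6.11. The log2 fold change was 0.84 ± 0.54 (by edgeR, adjusted p = 0.401), and 0.10 without osteoarthritis replicate 2. Osteoarthritis replicate 2 also had the highest sum of tendon and ligament markers, 12965 CPM, with none of the 8 at 0. Its fibroblast and synovium markers summed highest too, to 145540 CPM, against 34775 CPM in replicate 1 and 16860 and 43816 CPM in control. The tendon sum of osteoarthritis replicate 1, 571 CPM, was below those of the controls, 5248 and 4547 CPM. The part of either list in the Tnfaip3 values was not tested. The 2 inhibitors thus differed in which osteoarthritis library was the higher. Nfkbia stood at 5.81 and 1.35 times Rela by FPKM in osteoarthritis, against 1.24 and 2.24 times in control.

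**Figure D2:**
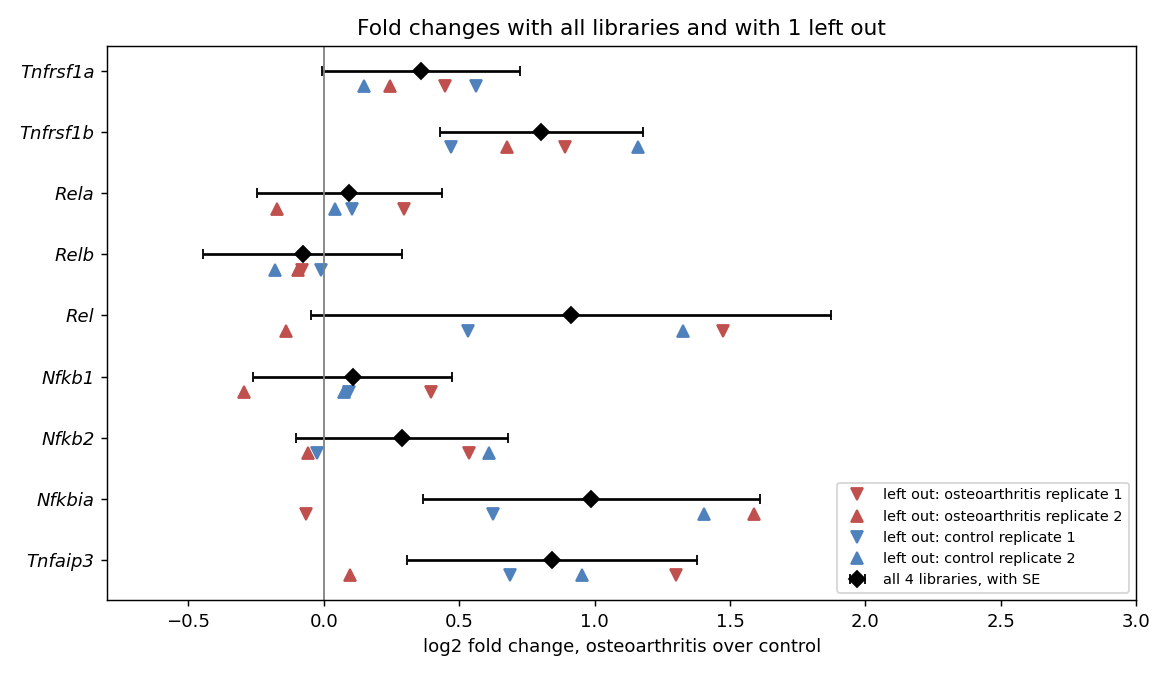
Log2 fold change, osteoarthritis over control, of the 9 tested genes: diamonds with SE bars use all 4 libraries, and triangles below them leave out 1 library (red for an osteoarthritis and blue for a control library). Tnfrsf1a, Tnfrsf1b and Tnfaip3 stay right of 0 in all 4 fits, Relb stays left of it, and Nfkbia moves between -0.07 and 1.59.

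The levels of the 10 genes relative to each other were set side by side by FPKM. In osteoarthritis, Nfkbia (263 and 64.1 FPKM) and Tnfrsf1a (103 and 89.8 FPKM) came first and overlapped, and Rela followed at 45.2 and 47.6 FPKM. In control, Tnfrsf1a (85.5 and 56.0 FPKM) and Nfkbia (55.8 and 84.0 FPKM) also overlapped at the top, above Rela at 45.1 and 37.5 FPKM. In both groups Nfkb1 and then Nfkb2 came next without overlap, and Tnfaip3, Rel and Tnf came last. Tnfrsf1b stood clear above Relb in osteoarthritis, at 13.3 and 11.9 FPKM against 9.44 and 7.27 FPKM for Relb. In control these 2 genes overlapped, with 5.55 and 7.81 FPKM for Tnfrsf1b and 9.23 and 7.15 FPKM for Relb. Set against all tested genes, Tnfrsf1a lay above 95.8% and 95.9% of them in osteoarthritis and above 94.4% and 91.9% in control, and Rel above 18.1% and 32.8%, against 17.2% and 22.1%.

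**Figure D3:**
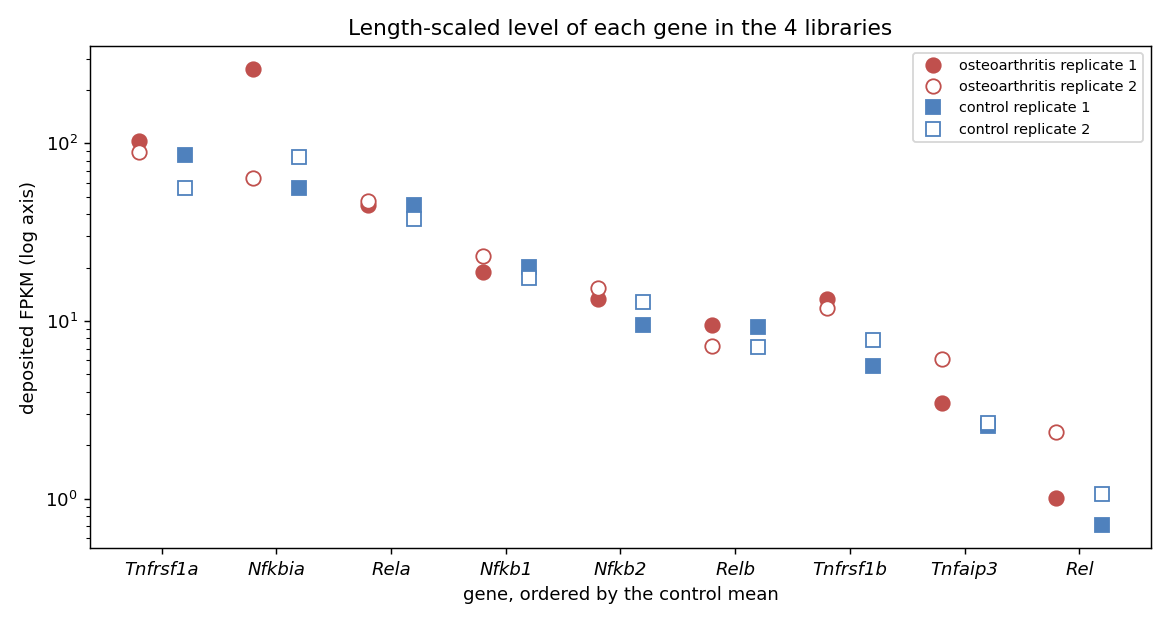
Deposited FPKM, on a log axis, of the 9 tested genes in each library, ordered by the control mean, with circles for osteoarthritis and squares for control, filled for replicate 1 and open for replicate 2. Tnfrsf1a and Nfkbia stand at the upper end and Rel at the lower end, and Nfkbia of osteoarthritis replicate 1, at 263 FPKM, lies above every other point; Tnf, at 0 in 3 libraries, is not drawn.

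Around these 10 genes, 120 others of the pathway were listed by role, of which 107 were tested. edgeR called 0 higher and 0 lower, and at an unadjusted p under 0.05 it had 9 higher and 14 lower, where the shares over all genes were 12.2% and 11.2%. Of the 107, 28 lay above both controls (30% of all genes) and 34 below both (26.5%), and the median log2 fold change was -0.04. DESeq2 called 6 of the 107 higher and 8 lower, beside 7.11% and 7.97% of all genes. These counts are near the shares over all genes. By edgeR, 7 of the genes were called with either osteoarthritis library left out: Crebbp and F3 higher, and Tnfrsf14, Tnfrsf11b, Il1rn, Lcn2 and Mmp9 lower, the last named after its values were seen. Those fits called 8.16% of all genes higher and 6.95% lower without osteoarthritis replicate 1, and 4.88% and 5.73% without replicate 2. With either control left out 0 were called. The fits without an osteoarthritis library share both controls, and each assumes that a lone library varies like the controls. A call in both is therefore not independent evidence. The shares are for each fit alone, and the share of all genes called in both is not given here. Whether 7 is more than that share was thus not tested. None of the following genes passed edgeR's test over all 4 libraries.

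The genes of the proteins that carry the signal inside the cell had group medians slightly below 0, where the median of all genes tested was 0.15. The 17 receptor adaptors and ubiquitin ligases had a median log2 fold change of -0.04, with 2 above and 5 below both controls, beside 30% and 26.5% of all genes. Cflar, which blocks caspase activation at the receptor, had 131 and 80.5 CPM in osteoarthritis against 37.1 and 31.6 CPM in control, a log2 fold change of 1.62 ± 0.37 (by edgeR, adjusted p = 0.112). It had the smallest p of this list, and DESeq2 called it higher (adjusted p = 0.00957). Traf2, an adaptor of both TNF receptors, was at -0.81, Birc3, a ubiquitin ligase, at -1.15, and Sharpin, part of the linear ubiquitin ligase, at -0.60, each below both controls. The 13 kinases and kinase regulators had a median of -0.20, with 4 above and 3 below both controls, against the same shares. Tbk1, an IKK-related kinase, was at 0.85 and Map3k3 at 0.56, both above both controls, while Tank, which binds TRAF proteins, was at -0.78 and below both. Map3k8, a kinase held by the Nfkb1 precursor, was at -0.93 and overlapped.

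The other inhibitors and the nuclear partners went in both directions. The 18 tested inhibitors had a median log2 fold change of -0.00087, with 5 above and 5 below both controls, near the 30% and 26.5% of all genes. Nfkbiz, a nuclear IkB protein, had 27.0 and 48.2 CPM in osteoarthritis against 16.7 and 8.06 CPM in control, a log2 fold change of 1.60 ± 0.53 (by edgeR, adjusted p = 0.171). Tnip2, which binds the Tnfaip3 protein, was at 1.19 and above both controls. Nfkbid, another nuclear IkB protein, was at -2.03 and Tnfaip8l2 at -1.46, both below both controls. Of 12 regulators of the factors, 7 lay above and 3 below both controls, beside 30% and 26.5% of all genes, with a median of 0.39. Crebbp, a coactivator that acetylates histones, had 120 and 136 CPM in osteoarthritis against 36.1 and 36.6 CPM in control, a log2 fold change of 1.82 ± 0.31 (by edgeR, adjusted p = 0.0835; DESeq2 adjusted p = 0.000177). Nfrkb, a chromatin protein, was at 0.71 and Cul1, a scaffold of the ligase that marks IkB alpha, at 0.73, both above both controls.

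Of 18 other tested genes for TNF family ligands, receptors and the shedding of TNF, 8 lay below and 4 above both controls, beside 26.5% and 30% of all genes, with a median log2 fold change of -0.43. Each osteoarthritis library set alone against the mean of the controls gave -0.04 for replicate 1 and -0.84 for replicate 2, so most of the difference lay in replicate 2. Tnfrsf14 had 9.97 and 8.73 CPM in osteoarthritis against 50.8 and 39.6 CPM in control, a log2 fold change of -2.27 ± 0.35 (by edgeR, adjusted p = 0.0835; DESeq2 adjusted p = 4.15e-05). Its ligand gene Tnfsf14 was at -4.11. Tnfrsf11b, the decoy receptor osteoprotegerin, was at -2.69, and Rhbdf2, which guides the TNF sheddase to the cell surface, at -1.003. Both osteoarthritis libraries lay below both controls for each of these 4 genes. Some marker lists were lower in the same libraries. They include the B cell and the macrophage and monocyte lists, as given above, and 10 osteoblast and osteocyte genes. The latter summed to 79.8 and 390 CPM in osteoarthritis against 1397 and 5712 CPM in control. Of these 10, 8 lay below both controls, 0 above and none was at 0, beside 26.5% and 30% of all genes. The T and NK cell list had a median log2 fold change of -0.90. Other lists had positive medians, adipocyte at 2.78, tendon and ligament at 1.64, endothelium at 0.70 and fibroblast and synovium at 1.42. For the last of these, osteoarthritis replicate 1 alone against the control mean gave 0.13 and replicate 2 gave 1.76. The same values were 3.73 and -4.56 for adipocyte, -2.19 and 2.54 for tendon and ligament, and 1.11 and 0.31 for endothelium. The part of any list in these values was not tested.

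Known NF-kB target genes went in both directions. Of 33 tested, 12 lay below both controls and 6 above both, beside 26.5% and 30% of all genes, with a median log2 fold change of -0.21. Lcn2, an iron-scavenging protein also stored in neutrophil granules, had 20.3 and 37.7 CPM in osteoarthritis against 396 and 626 CPM in control, a log2 fold change of -4.14 ± 0.55 (by edgeR, adjusted p = 0.0824; DESeq2 adjusted p = 2.35e-12). Il1rn, the interleukin-1 receptor antagonist, was at -2.75 and below both controls. Neutrophil markers were low in the same libraries. The 12 markers, Lcn2 included, summed to 130 and 633 CPM in osteoarthritis against 7435 and 11632 CPM in control. All 11 that were tested lay below both controls, beside 26.5% of all genes. Of the 12, 1 was at 0 in osteoarthritis replicate 2 and in each control, and their part in the values of Lcn2 and Il1rn was not tested. On the other side, F3, tissue factor, had 66.1 and 36.5 CPM in osteoarthritis against 7.92 and 5.45 CPM in control, a log2 fold change of 2.94 ± 0.47 (by edgeR, adjusted p = 0.0835; DESeq2 adjusted p = 1.07e-05). Tnfaip6, a hyaluronan-binding protein induced by TNF, had 15.1 and 68.8 CPM against 4.54 and 3.41 CPM, a log2 fold change of 3.40 ± 0.81 (by edgeR, adjusted p = 0.115).

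**Figure D4:**
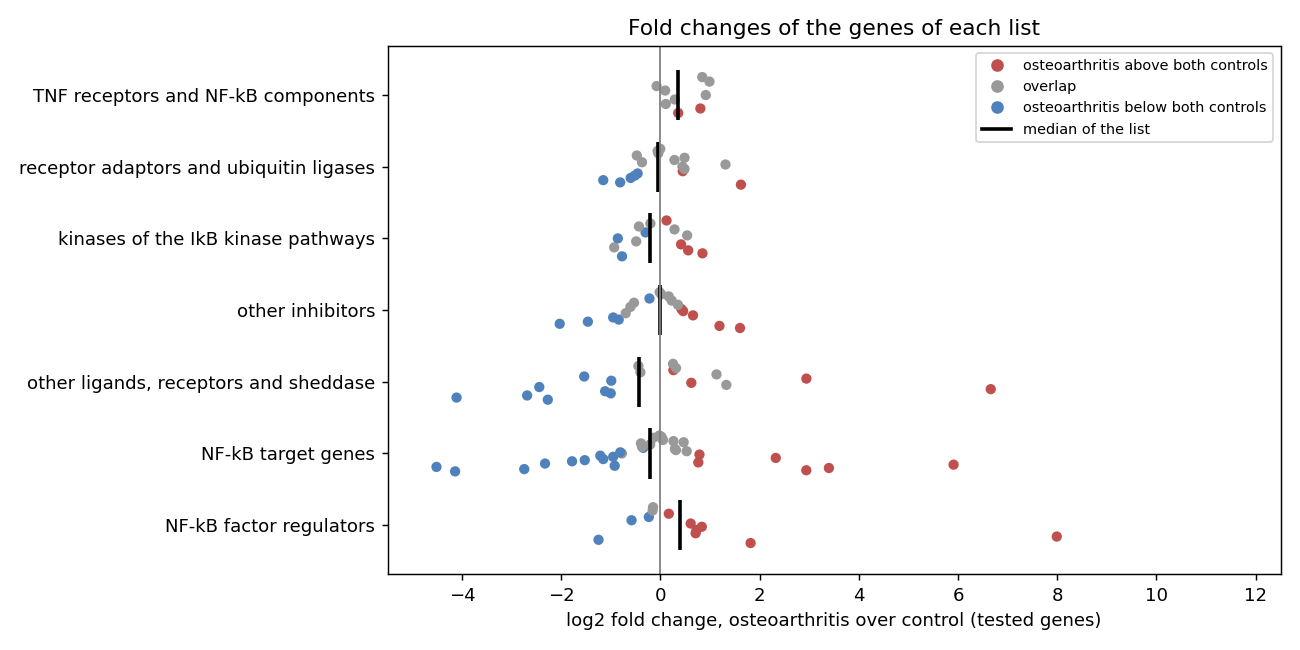
Log2 fold change, osteoarthritis over control, of each tested gene of the 10 described (top row) and of the 6 pathway lists; red points have both osteoarthritis libraries above both controls, blue points below both and grey points overlap, and a bar marks the median. The TNF receptors and NF-kB components lie between -0.08 and 0.99, and the target genes between -4.52 and 5.91; points far to the right had almost no counts in control, and their fitted values are no measure of size (Faslg and Nkrf were at 0 in both controls, and with them at a lower bound the medians of their lists stayed at -0.43 and 0.39).

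To place 3 of the genes among all others, the tested genes of at least 5 CPM most like each of them were found by the root mean square difference of log2(CPM + 0.5) over the 4 libraries, after centring each gene on its own mean. Of 11361 genes, Pik3r1, a regulatory subunit of PI3 kinase, was nearest to Nfkbia (0.036), with 214 and 74.2 CPM in osteoarthritis against 56.5 and 95.2 CPM in control. Paqr6 (0.12) and Nat1 (0.12) came next, and all 3 were highest in osteoarthritis replicate 1, as Nfkbia was. Nearest to Tnfrsf1a were Smyd5 (0.014), Ift57 (0.024) and Sbno2 (0.027). Nearest to Rela were Cdkn1b, Il10rb and Slc25a4, at 0.029, 0.029 and 0.030. With 4 libraries and many genes, close matches to almost any pattern can be found, and these are a description only.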

How the data were processed

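Cartilage RNA of 4 rat libraries was measured by RNA-seq. The authors deposited raw read counts per gene and FPKM values for the same genes. Per the submitters' processing notes, fastp and TopHat were used, and the build named is hg38, a human one. Counting tool, annotation and strandedness: not given in the sources used here. Overlapping genes may therefore share reads. All 67506 FPKM values above 0 equal the deposited count over one length per gene and the column total, within a relative 1e-06, and are no second measurement. Samples were grouped by the disease state label. Counts were fitted with edgeR 4.0.16 in R 4.3.3 (filterByExpr, TMM, quasi-likelihood F test, two-sided, Benjamini-Hochberg over 15282 genes, threshold 0.05). CPM uses TMM-scaled library sizes, and the SE is the log2 fold change over the root of F. Alternatives were DESeq2 1.42.0, limma 3.58.1 (voom, and trend on log2 FPKM with pseudocounts 1 and 0.1), a likelihood ratio test in edgeR, further scalings and filters, and each library left out. The scripts were tested on simulated counts. Named genes are all 10 genes, up to 4 per pathway list by smallest unadjusted p among genes whose higher group averaged at least 5 CPM, and 3 neighbours each of Nfkbia, Tnfrsf1a and Rela; 1 of these genes is not reported here. The genes, lists and rules were chosen with earlier results of these data known. Further median log2 fold changes of cell marker lists were: megakaryocyte -3.60, mast cell -0.56, osteoblast -3.91, osteoclast -3.52, fibroblast 1.42 and skeletal muscle -2.21, the last with high values in control replicate 1 alone. The fibroblast median was 0.13 for osteoarthritis replicate 1 alone against the control mean and 1.76 for replicate 2. Of its 11 genes 5 lay above and 2 below both controls, beside 30% and 26.5% of all genes. Figures were drawn with matplotlib 3.10.9.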

Additional observations from a re-analysis of the deposited data

How the results depend on the processing

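Of the 9 tested genes, Tnfrsf1a, Tnfrsf1b and Tnfaip3 kept a positive log2 fold change in all 15 alternatives (0.15 to 0.56, 0.47 to 1.16 and 0.10 to 1.30), and no alternative brought them past the threshold. Near-zero values changed sign: with upper quartile factors Nfkb1 was at -0.010 and Rela at -0.017. Relb was at 0.029 with library size alone and with limma-trend on log2 FPKM at either pseudocount (0.025 and 0.028). Without osteoarthritis replicate 1 Nfkbia was at -0.068. Without osteoarthritis replicate 2 Nfkb1 was at -0.29, Nfkb2 at -0.059, Rel at -0.14 and Rela at -0.17, the median of the 9 was -0.059, and 1 gene, Nfkbia, was called. Without control replicate 1 Nfkb2 was at -0.024. With 1 library left out, Nfkb1 ran from -0.29 to 0.40, Nfkb2 from -0.059 to 0.61, Rel from -0.14 to 1.48, Rela from -0.17 to 0.30, Nfkbia from -0.068 to 1.59 and the median of the 9 from -0.059 to 0.61, and the genes called higher among the 9 from 0 to 1 and lower from 0 to 0. The median of all genes moved by over 0.1 in 5 settings: it was 0.15 with all libraries, 0.05 with upper quartile factors, 0.27 with library size alone, 0.40 with DESeq2, 0.42 with no low count filter and -0.08 without osteoarthritis replicate 1.

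Calls over all genes were 1130 higher and 1266 lower with DESeq2, 965 and 978 with the likelihood ratio test, 677 and 751 with no low count filter, and 0 to 1297 and 0 to 1105 with 1 library left out (0 without either control). Listed pathway genes called were 7 higher (1 of them not among the 107) and 8 lower with DESeq2, 7 and 6 with the likelihood ratio test, 4 and 7 with no low count filter, and 0 to 7 and 0 to 11 with 1 library left out. The count of the 9 genes above both controls, an alternative chosen after the data were seen, was 5 with library size alone and with deposited FPKM, where Nfkb2, Rela and Tnfaip3 joined the receptors (32.9% of all genes on either scale). It was 7 without osteoarthritis replicate 1 (42.8% of all genes) and 3 without replicate 2 (42.1%). Below both controls lay 1, Relb, with upper quartile factors, and 0 to 2 with an osteoarthritis library left out, the 2 being Nfkb1 and Rela without replicate 2. The cause of these changes was not tested. The labels carry no replicate numbers, and those used here follow the order of the samples. No paired analysis was possible because the labels name no pairing, batch or donor. Depth limits Tnf, with 0 to 2 counts, and Rel, with 55 to 170.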

Other observations

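The ratio of the 2 inhibitor genes, chosen after their values were seen, was the most uneven of those taken. By FPKM, Nfkbia stood at 75.9 and 10.5 times Tnfaip3 in the osteoarthritis libraries, against 21.8 and 31.5 times in the controls. The osteoarthritis libraries lay on either side of both controls.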
